A study of Mus musculus with 7 samples.

Results

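The heat shock and endoplasmic reticulum (ER) stress genes are a set of 31 listed genes, taken by gene symbol. They were divided by role into 11 genes of the cytosolic and mitochondrial heat shock response, 16 ER chaperone and unfolded protein response genes, and 4 genes of the ATF4 branch. Of the 31 genes, 26 had a probe under their symbol in the platform annotation and 23 had a probe that could be tested, out of 10448 tested genes in all. The genes without a probe in that annotation were Hspa1b, Hsp90ab1, Dnajb11, Sdf2l1 and Atf6, and those whose probes were too dim to test were Canx, Manf and Trib3. The tested genes were 9 of the heat shock branch, 11 of the ER branch and 3 of the ATF4 branch.

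RNA came from the hypothalamus of male Bgn knockout mice on a C57BL/6 background, aged 13 weeks, and was hybridised to Illumina bead arrays. The untreated group (Bgn_KO) held 2 arrays, replicates 1 and 3, from mice on standard chow. The diet group (Bgn_KO_DHA) held 5 arrays, replicates 1 to 5, from mice whose chow contained 0.5% flaxseed oil and 1.2% oil from docosahexaenoic acid (DHA) capsules for about 6 weeks. Every mouse carried the knockout of Bgn, the gene of the matrix proteoglycan biglycan, and no wild-type mice or oil control diet were part of these groups, so an effect of DHA and one of flaxseed or extra oil cannot be told apart. The series text speaks of 3 untreated mice with 1 sample removed as an outlier; no label names the animal of an array, and if arrays did not come from separate mice the p-values cover only the spread between these samples.

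Cells answer misfolded protein with compartment-specific programmes. In the cytosol, the transcription factor HSF1 is released from chaperones and switches on heat shock proteins through heat shock elements. In the ER, the chaperone BiP holds the sensors IRE1, PERK and ATF6 in check, and unfolded protein sets them free. IRE1 splices the Xbp1 message and ATF6 is cut to an active factor, and both raise ER chaperones. PERK slows translation while favouring that of ATF4, which acts on Ddit3, Atf3 and Trib3. In the hypothalamus, ER stress is known for its links to leptin and insulin sensitivity.

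Some regulatory letters of these programmes can be read in the promoters of part of the members. The 250 bases before the annotated start were searched in the RefSeq promoter sequences of mouse build GRCm38.p6, on both strands, for 5 motifs. These were the heat shock element (GAANNTTC or TTCNNGAA, which may overlap each other), the ER stress element ERSE (CCAAT and CCACG with 9 bases of any kind between), ERSE-II (ATTGG and CCACG with 1 base between), the unfolded protein response element UPRE (TGACGTGG) and the amino acid response element CARE (TGATGNAA). Of the 31 genes, 25 had a promoter sequence in the table used here. A heat shock element was found for 6 of 8 heat shock genes, 0 of 13 ER genes and 0 of 4 ATF4 branch genes, while 14.5% of all 27025 genes with a sequence had at least 1. The windows of Hspd1 and Hspe1 overlap, since both genes start from a shared stretch and point away from each other, so the 3 matches counted for each gene lie in largely shared sequence and are not separate evidence. An exact ERSE was found for 6 of 13 ER genes (Hspa5, Hsp90b1, Pdia6, Calr, Canx and Creld2), for 0 of the 12 others, and for 0.13% of all genes. ERSE-II was found for Herpud1 alone among the members, against 0.037% of all genes. CARE was found for Herpud1 and Atf3, against 3.91% of all genes, and UPRE for 0 members, against 0.603% of all genes. The branches were drawn from known regulation, so these counts describe the members and are not independent of how they were grouped, and a match is not evidence of binding. The windows of Bag3, Pdia3 and Ddit3, whose values appear below, held none of these letters.

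A set of 5 promoters of tested genes with matches is shown as examples, chosen with their results in view. Other tested members, namely Hsph1, Hspd1, Hspe1, Hspa5, Pdia6, Calr and Atf3, also held matches. Capitals mark the matches. Hspa1a lies at chr17:34972157-34972406 on the minus strand, with a heat shock element 104 to 97 bases before the start. Hspb1 lies at chr5:135887669-135887918 on the plus strand, with heat shock elements at 117 to 110 and 97 to 90 bases. Hsp90b1 lies at chr10:86705445-86705694 on the minus strand, with ERSE matches at 212 to 194 and, on the other strand, 107 to 89 bases. Creld2 lies at chr15:88819396-88819645 on the plus strand, with an ERSE match on the other strand at 126 to 108 bases. Herpud1 lies at chr8:94386179-94386428 on the plus strand, with a CARE match on the other strand at 112 to 105 bases and ERSE-II at 52 to 42 bases.
Hspa1a: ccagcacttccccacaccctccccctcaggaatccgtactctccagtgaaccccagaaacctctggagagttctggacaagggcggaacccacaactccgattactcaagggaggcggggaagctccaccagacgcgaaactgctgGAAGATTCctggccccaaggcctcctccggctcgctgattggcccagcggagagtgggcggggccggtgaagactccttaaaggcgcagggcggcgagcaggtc
Hspb1: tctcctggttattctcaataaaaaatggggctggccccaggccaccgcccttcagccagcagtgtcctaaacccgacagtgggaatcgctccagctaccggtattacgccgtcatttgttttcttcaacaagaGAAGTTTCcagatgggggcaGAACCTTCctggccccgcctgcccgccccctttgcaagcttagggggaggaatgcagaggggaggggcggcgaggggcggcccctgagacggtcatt
Hsp90b1: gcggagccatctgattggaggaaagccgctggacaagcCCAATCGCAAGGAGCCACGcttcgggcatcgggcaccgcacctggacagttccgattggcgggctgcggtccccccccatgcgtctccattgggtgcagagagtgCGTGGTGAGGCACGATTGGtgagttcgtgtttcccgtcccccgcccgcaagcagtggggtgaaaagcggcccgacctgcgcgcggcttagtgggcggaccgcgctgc
Creld2: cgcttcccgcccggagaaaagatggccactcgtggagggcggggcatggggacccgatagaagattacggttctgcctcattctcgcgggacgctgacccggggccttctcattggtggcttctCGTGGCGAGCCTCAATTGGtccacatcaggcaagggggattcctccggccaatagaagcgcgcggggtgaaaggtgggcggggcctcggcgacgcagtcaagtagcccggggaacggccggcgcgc
Herpud1: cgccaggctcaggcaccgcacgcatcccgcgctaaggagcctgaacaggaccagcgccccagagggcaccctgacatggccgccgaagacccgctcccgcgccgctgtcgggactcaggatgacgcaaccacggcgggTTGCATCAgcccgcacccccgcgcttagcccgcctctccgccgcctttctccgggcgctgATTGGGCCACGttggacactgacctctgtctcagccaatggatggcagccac

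The arrays detected between 13873 and 14534 of 25697 probes, with the DHA arrays above both untreated arrays, and the median unnormalized signal ran from 167.4 to 189.5. Their number limits the precision of every value. Of 18 hypothalamic marker genes 14 were tested, and the neuropeptides Npy, Pomc, Avp, Oxt, Hcrt and Pmch were detected in all 7 arrays. Of the 14, 5 were higher and 9 lower with DHA, with a median log2 difference of -0.05. The lowest was Tac2 at -0.61 (SE 0.11, limma adjusted p 0.167), with every DHA array below both untreated arrays. Agrp had no probe in the annotation, the probes of Crh, Sim1 and Otp were too dim to test, and Nr5a1, a factor of the ventromedial nucleus, passed detection on both (2 of 2) untreated arrays but on 1 of 5 with DHA. Untreated replicate 1 stood apart in striatal neuron genes. Their summed normalized signal over 8 tested genes was 14443 there, whereas untreated replicate 3 had 8975 and the diet group 8055 to 8880. In whole tissue, fewer cells of a type and less RNA per cell cannot be told apart.

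Most of the stress genes had somewhat higher signals on the diet, by small amounts, and no single one passed the test. Of the 23 tested members, 20 had a higher mean with DHA, or 87%, where 48.2% of all 10448 tested genes did. The median log2 difference of the members, DHA minus untreated, was 0.17, against -0.01 over all tested genes. A log2 difference compares normalized log2 signals, and 1 unit is a doubling. With untreated replicate 1 left out the median was 0.09, and with DHA replicate 3 also left out it was 0.04, with 17 of 23 members higher. In limma, 0 members had an adjusted p under 0.05 (the smallest was 0.439), and across the array 0 of 15284 probes did, or 0%. At an unadjusted p under 0.05, 2 members (Bag3 and Pdia3) were higher and 0 were lower. That is 8.7% of the members, while 5.38% of all tested genes were higher and 4.52% lower by the same rule. All 5 DHA arrays lay above both untreated arrays for 5 members, namely Hspb1, Bag3, Hsp90b1, Pdia3 and Creld2. That is 21.7% of the members, against 8.65% of all genes, and the reverse order held for 0 members, against 8.79%. The tested members were detected on all 7 arrays in 21 of 23 cases, the exceptions being Hspa5 and Atf3. The plot of members among all tested genes shows the shift to the right of 0.

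**Figure D1:**
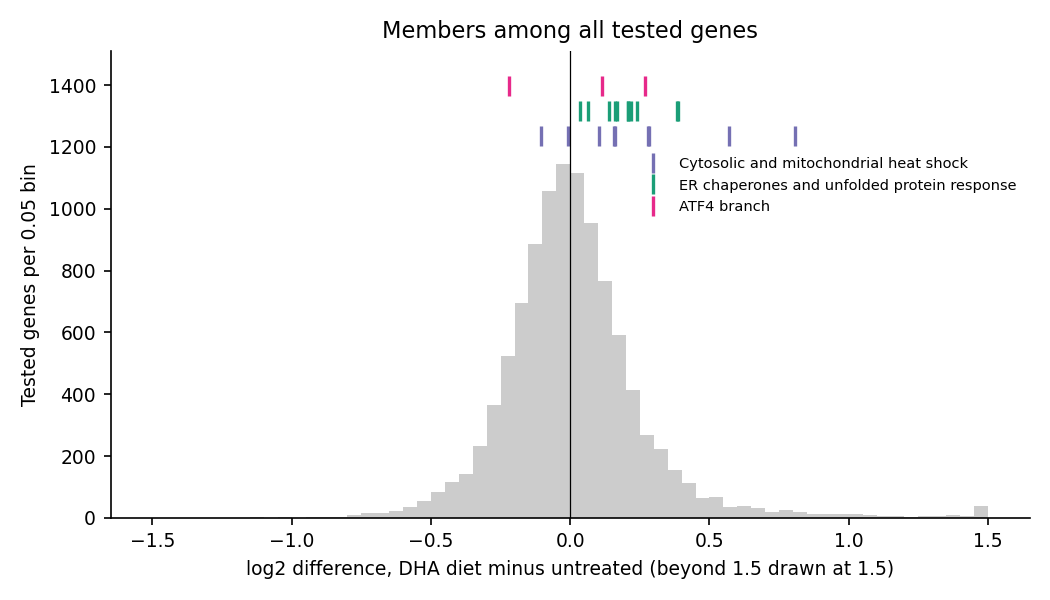
Histogram of the log2 difference (DHA diet minus untreated, x axis) of the 10448 tested genes in bins of 0.05 (y axis, number of genes; values beyond 1.5 drawn at 1.5), with a tick for each of the 23 tested members coloured by branch. Of the ticks, 20 lie to the right of 0, all 11 of the ER branch among them, and most fall within the body of the distribution.

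The inducible heat shock genes with the largest differences were also the most variable. Hspa1a encodes the stress-inducible HSP70. Its normalized log2 signal was 7.44 in untreated replicate 1 and 7.56 in replicate 3, against 8.07, 8.31, 8.73, 7.51 and 7.73 for DHA replicates 1 to 5. DHA replicates 1 to 3 lay well above the untreated arrays, replicate 5 slightly above them and replicate 4 between them. The difference was 0.57 (SE 0.30, 95% interval -0.12 to 1.26, limma adjusted p 0.543), and the unnormalized signals ran from 280.6 in untreated replicate 1 to 556.2 in DHA replicate 3. It was 0.36 on the authors' values and 0.90 with the replicate number as a block. Hspa1b is a nearly identical copy of this gene, and without the probe's sequence at hand the signal cannot be assigned to Hspa1a alone.

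Hspb1 encodes the small heat shock protein HSP27, which holds unfolding proteins in solution and is present in vessel walls and glia. Without the diet it read 6.98 and 6.40 on the log2 scale, and DHA replicates 1 to 5 read 7.06, 7.90, 8.22, 7.30 and 7.01. The groups did not overlap, although DHA replicates 1 and 5 exceeded untreated replicate 1 by less than the untreated arrays differed from each other. The difference of 0.81 (SE 0.35, 95% interval -0.01 to 1.62, limma adjusted p 0.491) was the largest among the members with all arrays in the fit. It was 0.52 without untreated replicate 3, where Hyou1 (0.64) and Hspa1a (0.63) were larger. On the authors' values it was 0.42, and with background correction left out 0.43. The unnormalized signals were low, at 237.8 and 208.0 untreated and 255.0 to 433.9 with DHA.

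Bag3, the co-chaperone that hands HSP70 clients to autophagy, had a smaller and steadier difference. Log2 signals of 10.59 and 10.66 without the diet compared with 10.85, 11.05, 11.01, 10.85 and 10.78 for DHA replicates 1 to 5. Every DHA array lay above both untreated arrays, and the gap between the groups exceeded the distance between the untreated arrays. The difference was 0.28 (SE 0.11, 95% interval 0.04 to 0.53, limma adjusted p 0.439).

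The remaining cytosolic chaperones had smaller differences. Hsp90aa1, the inducible HSP90, differed by 0.28 (SE 0.19), with log2 signals of 7.35 and 7.57 untreated and from 7.40 to 8.07 with DHA, and its other probe was detected in 1 of 7 arrays and was not tested. The difference of Hsp90aa1 was 0.17 without untreated replicate 1 and 0.16 on the authors' values. Dnajb1, the HSP40 partner of HSP70, differed by 0.10 (SE 0.13), with 12.41 and 12.50 untreated and 12.30 to 12.77 with DHA. Hsph1, an HSP110 that exchanges the nucleotide of HSP70, differed by -0.10 (SE 0.18), with 12.33 and 12.27 untreated and 11.87 to 12.49 with DHA. For all of these the groups overlapped. Hspa8, the constitutive HSP70, differed by -0.01 (95% interval -0.25 to 0.23) on its brighter probe and by -0.11 (SE 0.12) on the other.

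The mitochondrial chaperonin genes Hspd1 (HSP60) and Hspe1 (HSP10) are transcribed from the shared promoter noted above. Hspd1 differed by 0.16 (SE 0.10) on its brighter probe, with log2 signals of 11.49 and 11.64 untreated and 11.62 to 11.81 with DHA. The other probe of Hspd1 pointed the other way, by -0.17 (SE 0.14), so its direction depends on the probe. Hspe1 differed by 0.16 (SE 0.15), with 9.69 and 9.99 untreated and 9.78 to 10.23 with DHA. The limma adjusted p of the 9 heat shock genes lay between 0.439 and 0.983, and the branch median was 0.16. That median was 0.09 without untreated replicate 1 and 0.30 without untreated replicate 3.

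**Figure D2:**
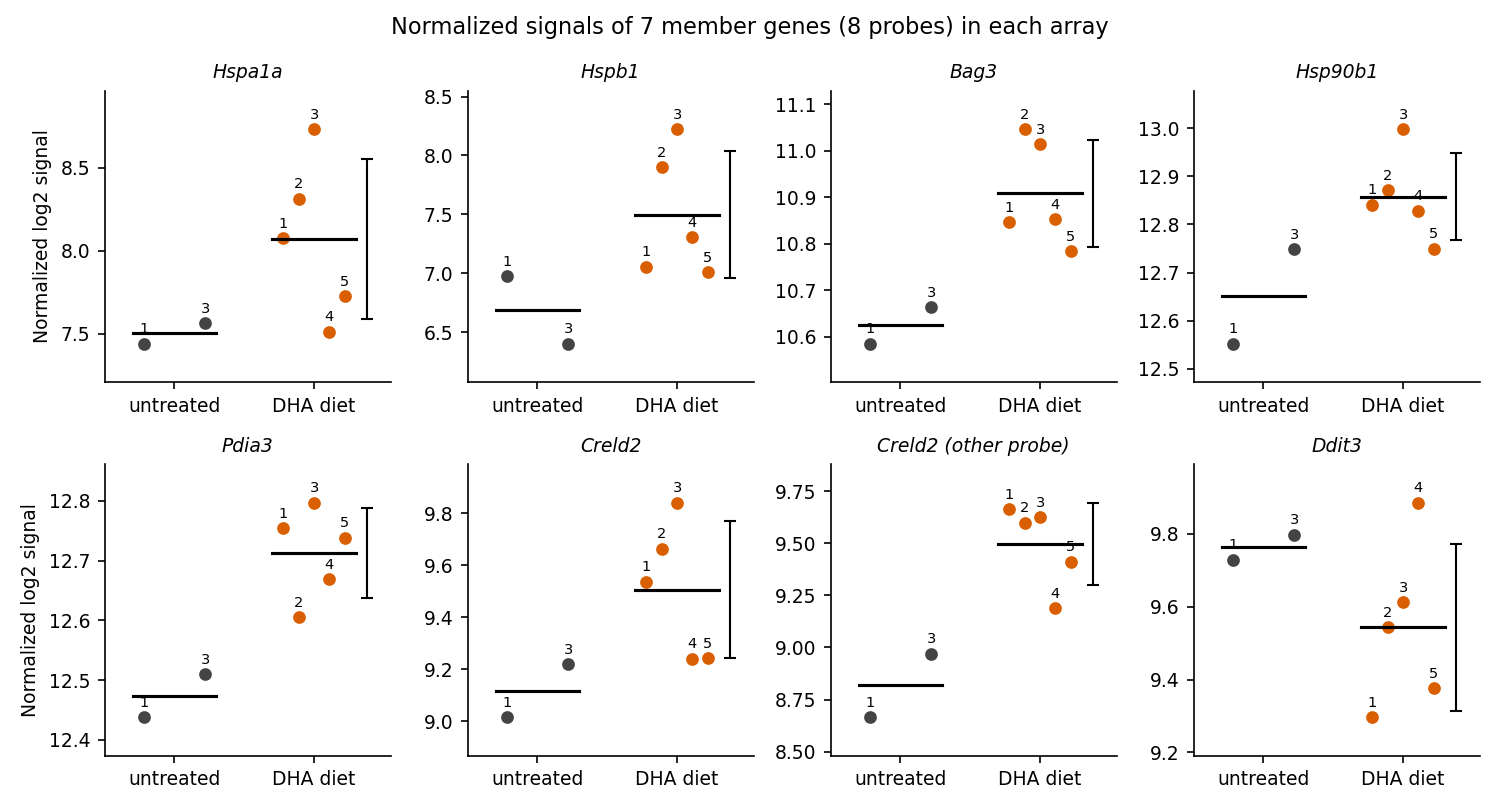
Normalized log2 signal (y axis, a separate range in each panel) of 8 probes of 7 members in the 2 untreated and 5 DHA diet arrays (x axis); numbers are replicates, horizontal lines are group means and error bars are 1 SD of the 5 DHA arrays. The groups do not overlap for Hspb1, Bag3, Hsp90b1, Pdia3 and both probes of Creld2, while Hspa1a and Ddit3 overlap; DHA replicate 3 is the highest array for Hspa1a, Hspb1, Hsp90b1, Pdia3 and the brighter probe of Creld2.

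In the ER branch all 11 tested genes had a higher mean with DHA, with a median log2 difference of 0.21 and a range from 0.04 to 0.39. None passed the test, and the limma adjusted p lay between 0.449 and 0.923. The median rested in large part on untreated replicate 1, which was lower than untreated replicate 3 for all 11 genes. Without that array the median was 0.07, and without untreated replicate 3 it was 0.30.

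Creld2, a secreted ER protein of the ATF6 programme that helps disulfide formation, had 2 tested probes with higher signals on the diet. On the brighter probe its log2 signal was 9.02 and 9.22 untreated and 9.54, 9.66, 9.84, 9.24 and 9.24 for DHA replicates 1 to 5. On the other probe it was 8.67 and 8.97 untreated and 9.66, 9.60, 9.63, 9.19 and 9.41 with DHA. On both probes every DHA array lay above both untreated arrays, with replicate 4 the lowest of the DHA arrays. The brighter probe differed by 0.39 (SE 0.18, 95% interval -0.03 to 0.81) and the other by 0.68 (SE 0.16, 95% interval 0.32 to 1.04), with limma adjusted p of 0.521 and 0.251. The second is the lowest adjusted p among the 28 tested probes of the set.

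Among the HSP70 and HSP90 chaperones of the ER, Hsp90b1 (GRP94) was measured most precisely. Its log2 signal was 12.55 and 12.75 untreated and 12.84, 12.87, 13.00, 12.83 and 12.75 with DHA, and DHA replicate 5 was nearly level with untreated replicate 3. The difference was 0.21 (SE 0.10, 95% interval -0.03 to 0.45, limma adjusted p 0.533), and 0.11 both without untreated replicate 1 and with scaling to a common median. Hspa5, the gene of BiP, was read by a probe near background that was not detected in untreated replicate 1 (unnormalized signal 157.6, detection p 0.0602). It differed by 0.21 (SE 0.23), with 5.16 and 5.66 untreated and 5.23 to 5.96 with DHA, so the central chaperone of the branch is poorly measured here. Hyou1, which encodes the ER protein GRP170, differed by 0.38 (SE 0.21, limma adjusted p 0.566), with 5.66 and 6.16 untreated and 6.01 to 6.62 with DHA. Its difference was 0.13 without untreated replicate 1, 0.64 without untreated replicate 3 and 0.13 on the authors' values.

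The disulfide isomerases, which form and reshuffle disulfide bonds, had differences of unlike size. Pdia3, the isomerase that works with calreticulin on glycoproteins, had log2 signals of 12.44 and 12.51 untreated and 12.75, 12.61, 12.80, 12.67 and 12.74 for DHA replicates 1 to 5. All DHA arrays lay above both untreated arrays, and the difference was 0.24 (SE 0.09, 95% interval 0.03 to 0.45, limma adjusted p 0.449). Pdia4 differed by 0.04 (95% interval -0.20 to 0.27) and Pdia6 by 0.06 (95% interval -0.13 to 0.26). Whether Pdia3 differed from Pdia4 and Pdia6 in its response was not tested. Calr, the calcium-binding lectin chaperone calreticulin, differed by 0.16 (SE 0.13), with 9.18 and 9.31 untreated and 9.18 to 9.60 with DHA. Its membrane-bound relative Canx was not detected in any array, at unnormalized signals of 143.9 to 154.1, which is a limit of the probe's signal and not a level of the gene.

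Of the genes that report unfolded protein signalling, Xbp1, the factor spliced by IRE1, differed by 0.22 (SE 0.16), with 11.96 and 12.28 untreated and 12.05 to 12.58 with DHA. Whether its probe separates the spliced message was not examined. Dnajb9 (ERdj4), a co-chaperone of BiP and a target of XBP1, differed by 0.17 (SE 0.16) with overlapping groups, and its second probe was not detected in any array. Herpud1, which works in ER-associated degradation, differed by 0.14 (SE 0.10) and 0.17 (SE 0.12) on its probes. Both probes had untreated replicate 1 as the lowest array. Manf, a secreted ER stress protein, was not detected in any array, at 135.6 to 144.3.

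The plot of differences by probe sets these genes beside one another.

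**Figure D3:**
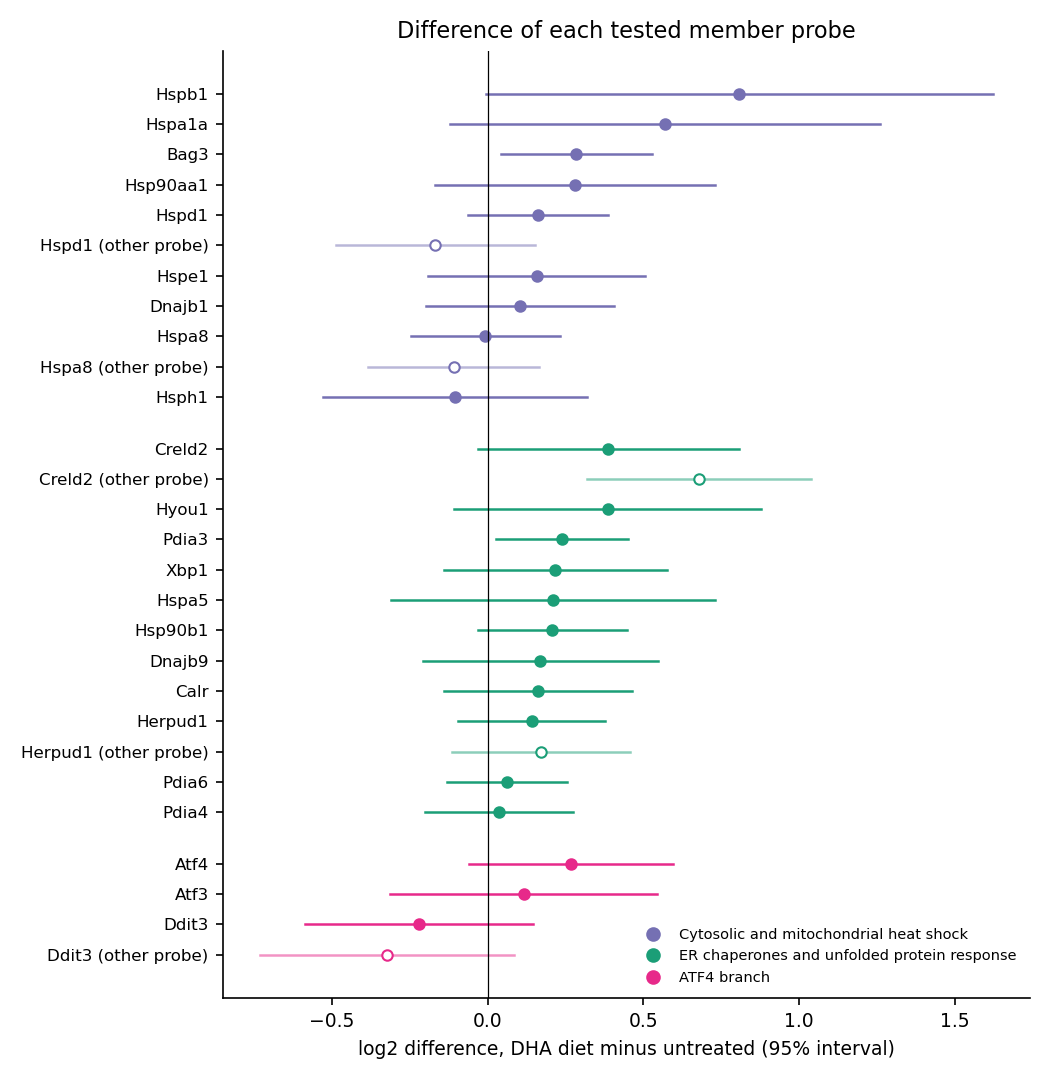
Log2 difference (DHA diet minus untreated, x axis) with its 95% interval from the limma fit for the 28 tested probes of 23 members, one line per probe, coloured by branch and ordered by size; open circles are further probes of the same gene. The intervals exclude 0 for Bag3, Pdia3 and the other probe of Creld2, none of which passed after adjustment, and Hspd1 has probes on both sides of 0.

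The ATF4 branch had no common direction. Atf4 itself differed by 0.27 (SE 0.14, limma adjusted p 0.551), with log2 signals of 6.29 and 5.89 untreated and 6.19, 6.31, 6.57, 6.36 and 6.34 with DHA, on a probe of low signal. Its difference was 0.47 without untreated replicate 1, 0.07 without untreated replicate 3 and 0.10 on the authors' values. Ddit3, the pro-apoptotic factor CHOP, had the lowest value of the set. Its brighter probe read 9.73 and 9.80 untreated and 9.30, 9.54, 9.61, 9.89 and 9.38 with DHA, a difference of -0.22 (SE 0.16, limma adjusted p 0.665). Its other probe read 8.47 and 8.53 untreated and 8.12, 8.16, 8.36, 8.47 and 7.78 with DHA, a difference of -0.32 (SE 0.18, limma adjusted p 0.559). On the second probe every DHA array lay below both untreated arrays, while on the first DHA replicate 4 was above them. Atf3, an inducible repressor, passed detection on 0 of 2 untreated arrays and on 2 of 5 with DHA, so no fold is given. Trib3, a pseudokinase induced by ATF4 and CHOP, was not detected in any array, at 134.0 to 161.2. Without Atf3 the branch median was 0.02, and 19 of the other 22 members were higher with a median of 0.19 over them.

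Which array was highest or lowest was largely shared across the members. DHA replicate 3 was the highest of the 7 arrays for 16 of 23 members, or 69.6%, against 14.5% of all tested genes. Untreated replicate 1 was the lowest for 15 of 23, or 65.2%, against 13.7% of all genes, and for 10 of the 11 ER genes. On the authors' normalized values the counts were 15 and 15. Untreated replicates 1 and 3 were each the highest for 0 of the 23 members, against 15.1% and 15.8% of all tested genes. The 5 further probes of the members followed this less, with 0 highest in DHA replicate 3 and 2 lowest in untreated replicate 1; the other probes of Hspd1 and Ddit3 were highest in untreated replicate 3.

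The mean log2 signal over the 9 heat shock genes was 10.36 in untreated replicate 1 and 10.39 in replicate 3, against 10.56, 10.73, 10.93, 10.49 and 10.41 for DHA replicates 1 to 5. Here the spread among the DHA arrays was wider than the gap to the untreated arrays, and DHA replicates 2 and 3 stood highest. Over the 11 ER genes it was 9.75 and 9.97 untreated and 10.13, 9.98, 10.19, 9.98 and 10.02 with DHA. In the ER branch untreated replicate 3 lay just below DHA replicates 2 and 4, and untreated replicate 1 lay apart. Over all 10448 tested genes the mean was between 8.37 and 8.39 in every array, as the normalization sets it.

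**Figure D4:**
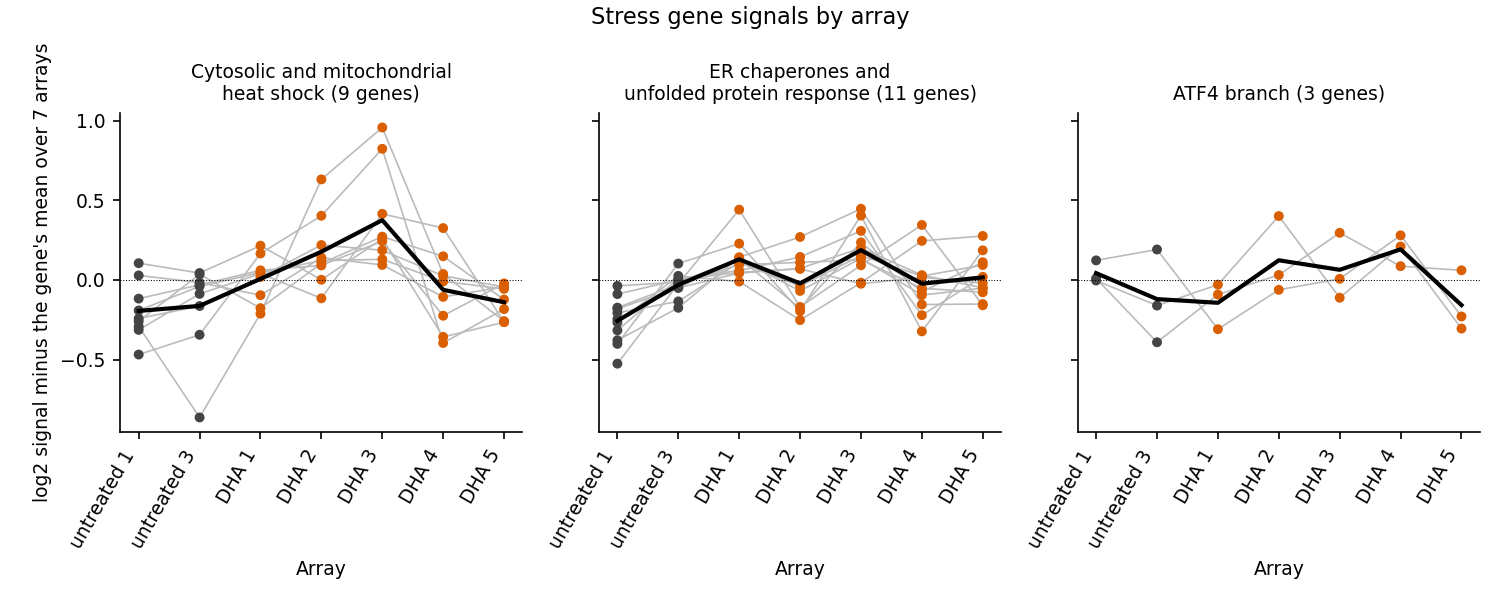
Log2 signal of each tested member minus its own mean over the 7 arrays (y axis) in each array (x axis), by branch, with grey lines linking 1 gene and the black line giving the branch mean; the order of the arrays has no meaning. The heat shock genes peak in DHA replicate 3 and the ER genes are lowest in untreated replicate 1, while the 3 ATF4 branch genes share no pattern.

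Other genes of the same pathways were divided nearly evenly between higher and lower. Of 34 further heat shock factors and co-chaperones, 30 were tested, 17 were higher and 13 lower, the median was 0.02 and 0 passed. The examples with the smallest p were Serpinh1, the collagen chaperone HSP47, at 0.36 (SE 0.12), Hspa2, an HSP70 paralogue, at 0.26 (SE 0.10), the HSP40 Dnaja1 at -0.50 (SE 0.18) and the kinase-specific HSP90 partner Cdc37 at -0.20 (SE 0.14). Their limma adjusted p lay between 0.379 and 0.644. The 8 subunits of the cytosolic chaperonin, which folds actin and tubulin, were divided into 4 higher and 4 lower, with a median of 0.03. The subunits with the smallest p were Cct6a at 0.17 and Cct4 at 0.07 upward, and Cct3 at -0.24 and Cct2 at -0.26 downward (limma adjusted p from 0.490 to 0.815).

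Of 46 unfolded protein response sensors and genes of ER folding, translocation and degradation, 36 were tested, 18 were higher and 18 lower, and the median was 0.00 with 0 passing. Selenok, a selenoprotein of ER-associated degradation, was at 0.36 (SE 0.11), the glycoprotein folding sensor Uggt1 at 0.27 (SE 0.13), the prolyl isomerase Fkbp2 at -0.24 (SE 0.09) and Cdk5rap3 at -0.19 (SE 0.09), with limma adjusted p from 0.371 to 0.534. For Fkbp2 and Cdk5rap3 all DHA arrays lay below both untreated arrays. Over this list 2 genes lay wholly above and 6 wholly below the untreated arrays, where 8.65% and 8.79% of all genes did. By the same count the heat shock factors and co-chaperones had 4 above and 0 below, the chaperonin 1 and 1, and the ATF4 targets 4 and 1.

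Of 33 ATF4 target genes 28 were tested, 15 were higher and 13 lower, with a median of 0.02 and 0 passing. Nupr1, a small stress-induced chromatin protein, had the largest difference among the pathway genes, at 1.41 (SE 0.30, limma adjusted p 0.215). Its log2 signal was 8.34 and 7.79 untreated and 8.82, 9.89, 9.85, 9.37 and 9.43 with DHA, so every DHA array was above both untreated arrays. Slc7a11, the cystine importer, was at 0.65 (SE 0.16, limma adjusted p 0.296), with 9.51 and 9.58 untreated and 9.95, 10.52, 10.34, 10.08 and 10.06 with DHA. The seryl-tRNA synthetase Sars was at -0.27 (SE 0.10), with 0.07 on its other probe, and the methionyl-tRNA synthetase Mars1 at -0.21 (SE 0.11), with -0.41 on its other probe.

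The summed signals of meningeal and of vessel markers were higher with DHA and highest in DHA replicate 3. Striatal neuron markers were lower with DHA in 8 of 8 cases, with a median of -0.52. Untreated replicate 1 stood apart in them, as given above. Markers of the other cell types had smaller or mixed differences. The part of any of these markers in the stress gene values was not tested. The summed signal of 13 tested meningeal and fibroblast markers was 9234 in untreated replicate 1 and 4289 in replicate 3, against 13429, 19825, 23052, 18618 and 18075 for DHA replicates 1 to 5. All 13 were higher with DHA, with a median of 1.40, and Col1a1, Lum, Aldh1a2, Islr and Fmod were detected in 1 of 2 untreated arrays. The mean log2 signal was highest in DHA replicate 3, at 8.76, where Igf2 was the brightest marker at 13.88. Dcn, Lum, Ogn, Igf2, Slc47a1, Serping1 and Cp were highest in that array, and the other markers peaked in other DHA arrays. DHA replicate 3 had the highest sum, DHA replicate 2 the next, and untreated replicate 3 the lowest. Of the 23 tested members, 2 (Hspb1 and Atf4), or 8.7%, were lowest in untreated replicate 3, against 14.8% of all tested genes. Another 15, or 65.2%, were lowest in untreated replicate 1, against 13.7% of all tested genes. The sum of 10 endothelial and pericyte markers was 10901 and 8035 untreated and 12392 to 16871 with DHA, again highest in DHA replicate 3. Of these markers 9 of 10 were higher, with a median of 0.29, and Cdh5 and Tagln were detected in neither untreated array. The DHA arrays lay wholly above the untreated arrays for 4 markers, against 8.65% of all genes. These were Acta2 (1.34), Vtn (0.87), Slc2a1 (0.30) and Tagln. The groups overlapped for Pdgfrb (0.41), Pecam1 (0.28), Tek (0.20), Ly6c1 (0.05), Flt1 (-0.01) and Cdh5. The mean log2 signal of the 10 markers was also highest in DHA replicate 3, at 8.98, where Acta2 was the brightest marker at 12.56. Flt1, Vtn, Acta2 and Ly6c1 were highest in that array, and the others peaked in other DHA arrays. Of 6 oligodendrocyte markers 2 were higher and 4 lower, with a median of -0.07. Their sum was 31632 and 30887 untreated and 29727 to 40978 with DHA. The top value, in DHA replicate 3, came mostly from Mbp (log2 14.80). Mog (10.60), Mag (12.49) and Mobp (11.15) were also highest in that array, as was the mean log2 signal of the list, at 10.94. Cnp was at 11.45 there and at 11.46 in untreated replicate 1. Olig2 was at 5.15 in DHA replicate 3 and at 5.07 to 5.84 over all arrays.

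Astrocyte markers were higher in 6 of 8 cases, with a median of 0.16 and sums of 38828 and 36586 untreated and 38432 to 40742 with DHA. By the sum DHA replicate 3, at 38738, was the second lowest of its group. By the mean log2 signal it was the highest of the 7 arrays, at 10.61 against 10.37 to 10.56 in the others. Of 6 microglial markers 2 were higher and 4 lower, with a median of -0.04 and sums of 2279 and 2114 untreated and 1965 to 2348 with DHA. Of 4 choroid plexus markers 2 were higher and 2 lower, with sums of 2575 and 1493 untreated and 1656 to 4604 with DHA, and DHA replicate 3 was the lowest of its group. Of 9 glucocorticoid-responsive genes, 8 were higher with DHA, with a median of 0.37; their sum was 14268 and 15349 untreated and 15380 to 21783 with DHA. Fkbp5, an HSP90 co-chaperone on this list, was at 0.35 (SE 0.16, limma adjusted p 0.509), with every DHA array above both untreated arrays. Of 7 immediate early genes 4 were higher and 3 lower, and their sum overlapped between the groups, at 7203 and 6097 untreated and 4606 to 7304 with DHA.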

How the data were processed

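Illumina bead array data of 7 hypothalamus RNA samples were used. The unnormalized table holds, per the file headers, linear signal intensity and detection p-values for every probe on each array, as the authors deposited it; its values carry no background subtraction. A further deposited table holds the authors' normalized intensity, on the linear scale from its values, and equals the unnormalized signals for DHA replicate 5. Per the submitters' processing notes lumi 2.10.0 and R 2.15.0 were used; no source used here gives the normalization method. A total of 2 per-sample columns match no sample and were not used.

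Signals were corrected with normexp from the detection p-values at an offset of 16. They were then quantile normalized, which removes differences in total RNA, and put on the log2 scale, in R 4.3.3 with limma 3.58.1. A larger offset shrinks the differences of dim probes, yet the correction as a whole enlarged those of Hspb1, Hyou1 and Hspa5. The difference was 0.81 with and 0.43 without it for Hspb1, 0.38 and 0.13 for Hyou1, and 0.21 and 0.06 for Hspa5. Of 25697 probes, 23978 had 1 gene symbol and 1719 none; symbols were updated through the gene identifier. Probes detected (p under 0.05) on 2 or more arrays, 15284 in all, were compared by lmFit and eBayes in two-sided tests, and p-values were adjusted by Benjamini-Hochberg across them, with a threshold of 0.05. The brightest tested probe stands for a gene. The fit was tested on simulated data. Alternatives were the authors' values, other background, scaling, filter and variance settings, array weights, a replicate block, the mean of a gene's probes and leaving out arrays. All tested members are named; of the pathway lists, up to 2 genes per direction with the smallest p, with Fkbp5 and the markers named after their values were seen. The members and lists were chosen with earlier results of these data known.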

Additional observations from a re-analysis of the deposited data

Results flagged for a closer look

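Each tested member probe and the branch and set means, 32 series of values in all, were examined among the 5 DHA arrays for a sample far from the others, by Dixon's ratio of the gap to the range with a critical value of 0.71. None of the 32 exceeded it. With 5 values in each series, and 1 series examined at a time, the ratio can miss a modest shift shared across many members. It therefore cannot decide whether DHA replicate 3, the highest array for most members, stood apart from the other DHA arrays.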

How the results depend on the processing

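No member passed under any alternative tried (the lowest limma adjusted p was 0.177, for Pdia3), and between 17 and 21 members were higher under every alternative. These counts are out of 23 members, except for 2 filter settings. They were 21 of 26 without the detection filter and 18 of 21 with detection p under 0.01 in all 7 arrays. The count of probes past the threshold over the whole array was 12 with background correction left out and also 12 on the authors' values, 52 with an intensity trend and robust variances, and between 0 and 3 with 1 array left out (3 without untreated replicate 3). The ER branch median lay between 0.04 and 0.30 with arrays left out, and the median of all members between 0.04 and 0.27; the lowest value of each, 0.0444 and 0.0447, came without untreated replicate 1 and DHA replicate 3 together, a choice made after seeing the data. Scaling to a common median moved the median of all tested genes to -0.015. Directions turned for 7 members. Hspa8 was 0.0039 on the authors' values and between -0.048 and 0.0188 with arrays left out, Hsph1 0.16 with the replicate block, Hspd1 -0.0032 as the mean of its probes, and Hspa5 between -0.13 and 0.47, Hspe1 between -0.0471 and 0.30, Pdia4 between -0.0068 and 0.0615 and Xbp1 between -0.0074 and 0.38 with arrays left out. The cause was not tested. No label says what a replicate number marks. Correlations of same-numbered deviations were 0.003 and 0.034, and with 2 untreated arrays these values cannot show whether same-numbered samples share a litter, batch or day. With the replicate block, the members' median was 0.27 and 21 were higher. Signals near background limit Hspa5, Hyou1, Atf4 and Atf3, low signals also limit Hspb1, and 2 untreated arrays limit every comparison.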
